A study of Homo sapiens with 2 samples.

Results

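The RUNX transcription factors and their partner CBFB were examined in HCT116, an established epithelial line from a human colorectal carcinoma. Members were the probe sets whose platform annotation names RUNX1, RUNX2, RUNX3 or CBFB and no other gene. Such probe sets were found for 3 of the 4 genes, out of 18132 genes with a probe set of their own, and there were 9 of them: 2 for RUNX2, 4 for RUNX3, 3 for CBFB and 0 for RUNX1. All 8 probe sets annotated to RUNX1 also carry LOC100506403, a long noncoding RNA gene listed on the same chromosome, so they are described apart and support no statement on RUNX1 alone. The genes were singled out with the values of these arrays in view, RUNX2 for its large difference, so that difference is a description.

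One culture (shNC) was infected with lentivirus sh-negative-control and the other (shRAP1) with lentivirus sh-RAP1-4#, a single shRNA, both at a multiplicity of infection of 20 for 72 h. Each group held 1 array of total RNA, and no uninfected culture was among the samples. With 1 array per group no difference has a replicate check or a test, and every difference below is the log2 value in shRAP1 less that in shNC. The labels do not say which gene RAP1 stands for. TERF2IP, the shelterin protein also called RAP1, had a linear signal of 1311 in shNC and 624 in shRAP1, which is 47.6% of the control. The small GTPase genes RAP1A and RAP1B stood at 88.0% and 93.3%.

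RUNX proteins bind DNA through a shared Runt domain, and CBFB, which does not touch DNA itself, joins them and strengthens that binding. RUNX1 is a master regulator of blood stem cells, RUNX2 of bone-forming and hypertrophic cartilage cells, and RUNX3 of T cell subsets and sensory neurons. In the gut, RUNX3 has been studied as a tumour suppressor, and raised RUNX2 has been studied in invasive carcinomas. RUNX genes are transcribed from a distal and a proximal promoter, which give proteins with different N termini. The core site read by the family is TGTGGT, or ACCACA on the other strand.

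The promoters of RUNX2 are shown first because this gene had the largest positive difference of the family, and because the 2 windows differ in sequence. The stretches are the 250 bases before each RefSeq start site on GRCh38.p14, plus strand, at chr6:45328080-45328329 (distal) and chr6:45422025-45422274 (proximal). Capitals mark core sites on either strand.
RUNX2 distal: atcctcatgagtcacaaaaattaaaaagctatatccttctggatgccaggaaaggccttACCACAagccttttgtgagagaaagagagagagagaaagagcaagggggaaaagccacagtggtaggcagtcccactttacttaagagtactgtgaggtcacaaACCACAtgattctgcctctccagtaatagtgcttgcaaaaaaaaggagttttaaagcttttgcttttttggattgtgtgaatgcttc
RUNX2 proximal: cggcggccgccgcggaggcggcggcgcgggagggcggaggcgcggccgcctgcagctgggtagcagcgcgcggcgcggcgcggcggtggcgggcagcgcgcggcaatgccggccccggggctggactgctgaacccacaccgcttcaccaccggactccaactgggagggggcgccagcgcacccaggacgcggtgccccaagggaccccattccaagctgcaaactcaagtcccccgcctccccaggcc

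Over the whole 300-base windows, which run 50 bases past the start site, the distal RUNX2 promoter was 42.7% G or C with 2 CpG dinucleotides. The proximal one was 76.0% G or C with 39. The core site TGTGGT occurred 4 times in the distal RUNX2 window, counting both strands, and 0 times in the proximal window. At least 1 core site was found in 13.1% of the 35116 promoter windows of this length in the RefSeq table, and 5 windows, or 0.0142%, held 4 or more. The variant TGCGGT, whose matches do not overlap those of the core site, occurred in 7.29% of windows and 1 time in the distal RUNX2 window.

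RUNX3 had the same contrast between its promoters, with 2 core sites in the distal window and 0 in the proximal one. The distal RUNX3 window was 66.3% G or C, and the proximal one 76.0%. At least 2 core sites were present in 1.31% of all windows. The RUNX1 window in the table held 0 core sites and 0 copies of the variant, at 72.0% G or C with 40 CpG dinucleotides. It is the only window listed for RUNX1 and was not assigned to a distal or proximal promoter, so the other promoter was not examined. CBFB has no entry there.

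The distal windows of RUNX2 and RUNX3 shared an 18-base stretch with 2 core sites in a row. It occurred in 2 of the 35116 windows, these 2 themselves. This was the longest match found when the windows of different RUNX genes were compared. The next longest, 16 bases shared by the RUNX1 and proximal RUNX2 windows, occurred in 3 of the 35116. The 18-base stretch began at position 14, just after the start site, in RUNX2 and at position −133, before the start site, in RUNX3. The 30 bases printed for each gene include flanking bases in lower case. They span chr6:45328338-45328367 (plus strand) for RUNX2 and chr1:24965120-24965149 (minus strand) for RUNX3. Capitals mark the shared bases.
RUNX2: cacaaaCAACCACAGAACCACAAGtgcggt
RUNX3: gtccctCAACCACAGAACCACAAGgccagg
A match describes letters only. Which transcripts of the distal or proximal promoter the probe sets match was not examined, so no value here is assigned to either promoter.

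**Figure D1:**
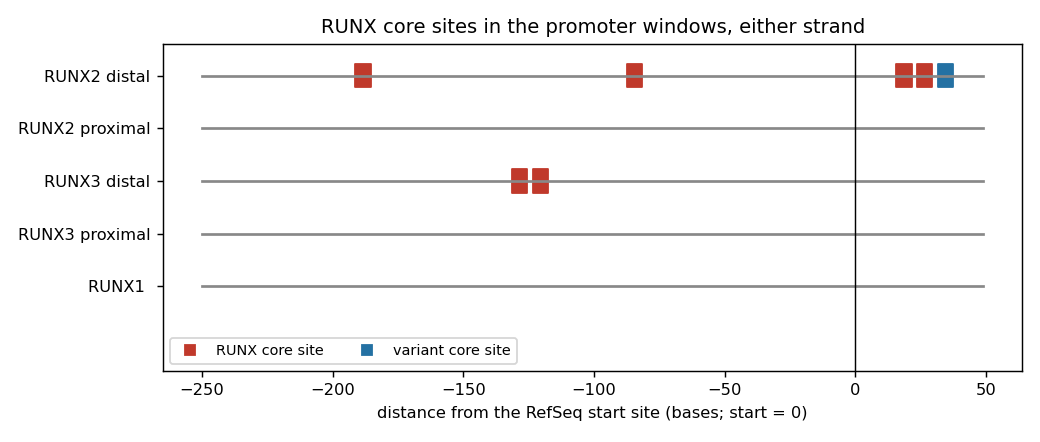
Positions of the core site (red) and its variant (blue) on either strand in the 5 promoter windows of RUNX1, RUNX2 and RUNX3, by distance in bases from the RefSeq start site at 0. The 4 core sites of the distal RUNX2 window and the 2 of the distal RUNX3 window are drawn, and the other 3 windows are empty.

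RUNX2, the bone transcription factor, had a linear signal of 143 in shNC and 337 in shRAP1 on its brighter probe set, 11725180_a_at. The shRAP1 value was 2.35-fold the control, a difference of 1.24 from 7.16 to 8.40 on the log2 scale. Both values lay above the floor, 78.0 on the linear scale, which is the median of all values that are not array controls. In shNC this probe set was brighter than 60.8% of single-symbol probe sets, and in shRAP1 than 76.3%. Thus RUNX2 was measured from a middling signal upward, not from a value near the bottom of the array. The RNA was from whole cultures, in which more RUNX2 RNA per cell and more cells with RUNX2 RNA cannot be told apart.

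No other probe set past the floor had a larger positive difference, among 23141 with a single symbol, of which 2 (0.00864%) were at least 2-fold higher. At the level of genes, taking for each the brightest of its probe sets past the floor, 10437 genes were measured and RUNX2 had the highest difference of them. The genes at least 2-fold higher were 2, or 0.0192% of all, and 2 (0.0192%) were at least 2-fold lower. Because RUNX2 was picked from this comparison, nothing is read from its place in that count. Genes with a similar mean value had differences with an SD of 0.17, and the RUNX2 difference was 7.41 such SDs. That SD describes how genes scatter here, not how cultures vary.

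The second RUNX2 probe set, 11738448_a_at, was dim, with 17.6 in shNC and 24.5 in shRAP1. Both values were below the floor, so the size of its difference, 0.48, is uncertain. It had the same sign as the brighter probe set and was 2.22 times the SD of probe sets of similar brightness. Among 10195 probe sets below the floor whose names also end in _a_at, the mark of probes that match several transcripts of 1 gene, 133 had a larger positive difference, which is 1.30%. Any difference above 0 was seen in 55.1% of the 21847 probe sets below the floor. The dim RUNX2 probe set therefore stood toward the upper end of probe sets like it, but many dim probe sets of other genes were higher.

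Among the genes with large positive differences, RUNX2 included, dim probe sets were mostly higher too. Of the 22 genes at least 1.5-fold higher (0.211% of all), 14 had 1 or more probe sets below the floor, 24 in all. Of these 24, which hold the dim RUNX2 probe set, 19 were higher, against 55.1% of all probe sets below the floor. The 24 had a median of 0.07 and a range from −0.20 to 0.98, and 3 exceeded the dim probe set of RUNX2. FOXQ1, TENM3 and TSPAN18, which are among the 22, passed the floor only through their shRAP1 value. In the other direction, 10 of 12 dim probe sets of the 18 genes at least 1.5-fold lower (0.172% of all) were lower too. Both sets of genes were picked for their differences, so these counts are a description.

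**Figure D2:**
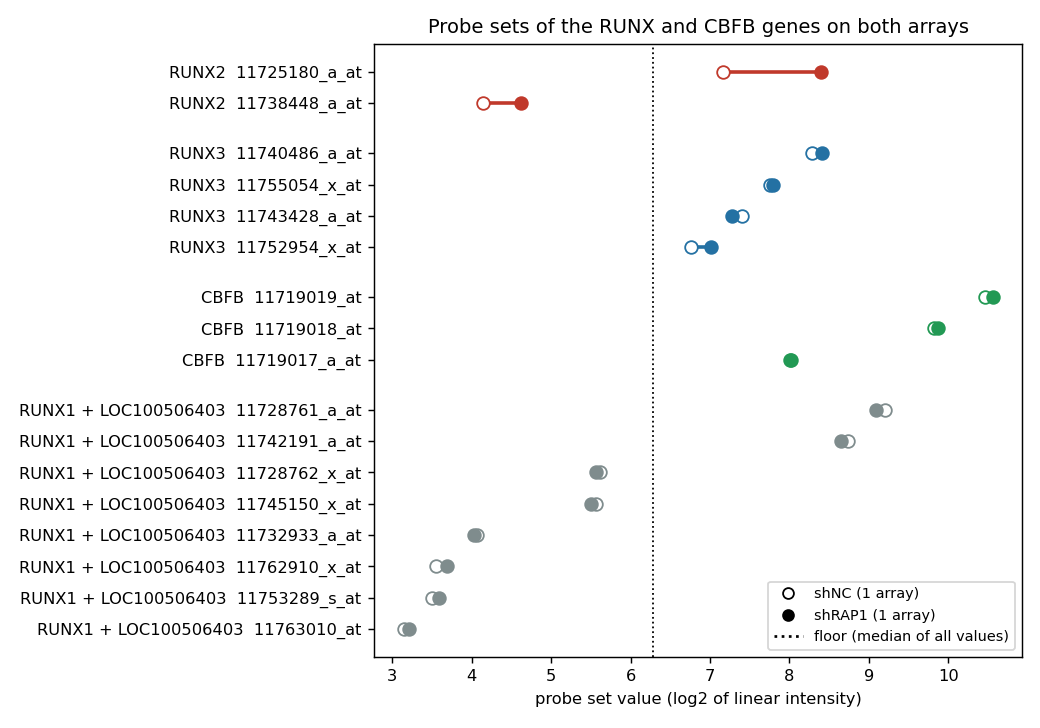
Log2 value of each probe set on the shNC array (open circles) and the shRAP1 array (filled circles), for RUNX2, RUNX3, CBFB and the probe sets annotated to both RUNX1 and LOC100506403, with the floor as a dotted line. The brighter RUNX2 probe set moves from 7.16 to 8.40, and no other line is as long.

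RUNX3, the family member of T cells and sensory neurons, was measured by 4 probe sets, all past the floor. The brightest, 11740486_a_at, had 311 in shNC and 340 in shRAP1, a difference of 0.13. The next, 11755054_x_at, had 216 and 223, a difference of 0.04. These probe sets differ by less than the spread of similar probe sets.

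The other RUNX3 probe sets pointed opposite ways. On 11743428_a_at the values were 170 in shNC and 155 in shRAP1, with a difference of −0.13. On the dimmest, 11752954_x_at, it was 109 and 129, a difference of 0.25, or 1.39 times the SD of probe sets of similar brightness. Names ending in _x_at mark probes that can match unrelated sequences.

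Sorted by name ending, the RUNX3 probe sets ending in _a_at stood at 0.13 and −0.13 and those ending in _x_at at 0.04 and 0.25, so the first ending held both signs and the second positive values of unequal size. Sorted by brightness there was no order either, since the dimmest and the brightest were both higher and the next dimmest lower. The differences spanned 0.38 from lowest to highest. Among the 831 genes with 4 probe sets past the floor, the median span was 0.18, and 91.1% had a smaller span than RUNX3. All 4 probe sets had the same sign in 51.3% of such genes. Past the floor, 49.4% of probe sets were higher by any amount and 50.6% lower, so 3 of 4 higher for RUNX3 describes no shift of the gene.

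CBFB, the partner subunit, had small differences on all 3 of its probe sets, which passed the floor. Its probe set 11719019_at had 1410 in shNC and 1513 in shRAP1, a difference of 0.10. For 11719018_at the values were 905 and 933, a difference of 0.04, and for 11719017_a_at they were 260 and 257, a difference of −0.02. All 3 lay within 0.73 times the SD of similar probe sets in size. The span of 0.12 was below the median of 0.14 for the 1657 genes with 3 probe sets past the floor, and 39.3% of those had a smaller one. The order of the CBFB differences followed their brightness, the probe set with the highest signal having the highest difference. With 3 differences of this size, nothing is read from that order.

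The probe sets annotated to both RUNX1 and LOC100506403 were 8, of which 2 passed the floor. For 11728761_a_at the shNC value was 590 and the shRAP1 value 544, a difference of −0.12. On 11742191_a_at it was 425 and 400, a difference of −0.09. Both were lower by less than the SD of similar probe sets. The other 6 were below the floor, with differences from −0.06 to 0.15. Of these, 11728762_x_at and 11745150_x_at had the same difference, −0.06, from signals of 49.2 and 47.1 in shNC.

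Set side by side at the gene level, the differences were 1.24 for RUNX2, 0.13 for RUNX3 and 0.10 for CBFB, against a median of 0.01 over all 10437 genes and an SD of 0.16. RUNX3 had 2151 genes with a higher difference and CBFB 2733, so both lay well inside the bulk. Whether the family members differ from each other was not tested, as there is 1 array per group.

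**Figure D3:**
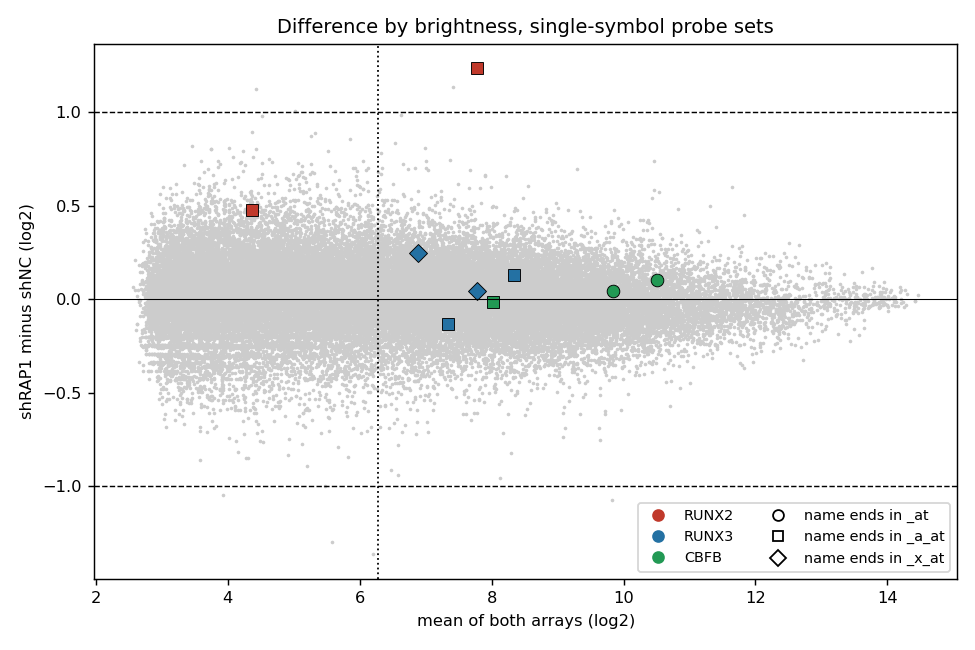
Difference on the log2 scale against the mean of both arrays for every single-symbol probe set (grey), with RUNX2, RUNX3 and CBFB in colour and marker shape by name ending. Dashed lines mark 2-fold, and the dotted line is the floor. RUNX2 lies at 1.24 above the grey cloud, and its dim probe set at 0.48 near the upper edge of the cloud.

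The spread of differences varied with brightness and with the ending of a probe set's name. Below the floor the SD was 0.20 over 21847 probe sets, from the floor to the 75th percentile of all values it was 0.18 over 11472, and above that percentile it was 0.15 over 11669. In the middle class the SD was 0.17 for names ending in _a_at, 0.17 for _x_at, 0.19 for _s_at and 0.19 for those with a plain _at. The share past 1.5-fold in either direction there was 0.337% for _a_at, 0.356% for _x_at, 1.08% for _s_at and 0.917% for _at. In the brightest class the SDs by ending lay between 0.14 and 0.15. The brighter RUNX2 probe set lies in the middle class by its shNC value and in the brightest by its shRAP1 value, so its class follows in part from its difference.

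The genes nearest to RUNX2 in difference were EGR3, FOXQ1, TENM3, TSPAN18 and SPTSSB, where likeness is the gap between differences over the 2 arrays. EGR3, an immediate early zinc finger factor, was at 1.14, and the forkhead factor FOXQ1 at 0.98. TENM3, a teneurin adhesion protein, was at 0.86, the tetraspanin TSPAN18 at 0.83 and SPTSSB, a small subunit of serine palmitoyltransferase, at 0.81. Each rested on 1 probe set past the floor, and the shNC values of FOXQ1, TENM3 and TSPAN18 were below it. With 1 difference per gene, this likeness is a rank and nothing more.

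Cofactors that bind RUNX proteins were measured for 19 of 24 listed genes, and none passed 1.5-fold, against backgrounds of 0.211% higher and 0.172% lower. Of the 19, 13 were higher and 6 lower, where 53.2% of all genes were higher by any amount and 46.8% lower, and the median was 0.04. TLE1 and CBFA2T3 passed the floor only through their shRAP1 value, so both could only count as higher. Nothing is read from the count of higher cofactors. Among the Groucho-family corepressors, TLE1 was at 0.32, from 75.3 in shNC, below the floor, to 94.0. TLE3 went from 206 to 249, a difference of 0.27, with its other probe set at −0.04. TLE2 went from 331 to 378, a difference of 0.19, with 3 probe sets between −0.05 and 0.19. TLE5, a shorter member of that family, was at −0.06, and all 3 of its probe sets were lower.

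HDAC6, a deacetylase that RUNX2 can recruit, went from 440 to 526, a difference of 0.26, and all 4 of its probe sets were higher. The RUNX1 fusion partner gene RUNX1T1, the corepressor gene TLE4 and the coactivator gene EP300 did not pass the floor. EP300 had 59.0 in shNC and 50.7 in shRAP1. The coactivator gene CREBBP had 970 and 972.

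Kinases, ubiquitin ligases and other enzymes that act on RUNX proteins were measured for 16 of 18 genes. The median was 0.05, with 10 of them higher, 6 lower and none past 1.5-fold. Over all genes, 53.2% were higher by any amount and 46.8% lower, with 0.211% past 1.5-fold upward and 0.172% downward. Nothing is read from the counts of modifiers. FZR1, an activator of the anaphase-promoting complex, went from 102 to 120, a difference of 0.24 with 3 probe sets between −0.11 and 0.28. MDM2, a ubiquitin ligase, went from 351 to 301, a difference of −0.22, but 4 of its 6 probe sets were higher. CDK4, a cyclin D kinase, went from 3038 to 2646, a difference of −0.20, and all 4 of its probe sets were lower. The related kinase CDK6 went from 603 to 675, a difference of 0.16, with 3 probe sets between −0.02 and 0.18.

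Of 19 factors known to control RUNX2 in other tissues, 10 were measured, 5 higher and 5 lower, with a median of −0.00311. Over all genes, 53.2% were higher by any amount and 46.8% lower. MSX2, a homeobox factor of the BMP pathway that acts in bone alongside RUNX2, had the largest difference in this list. On a probe set ending in _x_at, MSX2 went from 173 in shNC to 241 in shRAP1, a difference of 0.48. That was 2.78 SDs of genes with a similar mean value, and MSX2 was named for this size, so it is a description. Its other probe set was at 0.20. BMP4, a BMP ligand, went from 1572 to 1752, a difference of 0.16 on 1 probe set. SMAD4, the common SMAD, was at −0.06, and its 7 probe sets ran from −0.16 to 0.39. The vitamin D receptor gene VDR was at 0.04. Among the listed genes below the floor were BMP2, DLX3, DLX5, LEF1, TWIST1 and TWIST2.

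Apart from VEGFA, the skeletal targets of RUNX2 were at low signal on both arrays. Of 17 listed genes 1, VEGFA, passed the floor, and it went from 2065 to 2054, a difference of −0.00736 with 5 probe sets higher and 5 lower. Osteocalcin, BGLAP, had 45.2 in shNC and 49.9 in shRAP1, and osteopontin, SPP1, had 50.1 and 52.3. The osteoblast factor SP7 had 32.2 and 30.9, and the collagenase gene MMP13 had 26.2 and 24.5. All of these lay below the floor, so no change of these bone genes could be sized on these arrays.

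Targets of RUNX proteins in blood and epithelium were measured for 6 of 16 genes, 3 higher and 3 lower, with a median of −0.02. The shares over all genes were 53.2% higher by any amount and 46.8% lower. BCL2L11, which encodes the pro-apoptotic protein BIM and is a RUNX3 target in the stomach, went from 268 to 305, a difference of 0.18 with 4 of 5 probe sets higher. CDKN1A, the cell cycle inhibitor p21, went from 4488 to 4063, a difference of −0.14, and both of its probe sets were lower. ZBTB7B, a factor of CD4 T cells, was at −0.08 and the perforin gene PRF1 at 0.06. Among those below the floor, CSF1R had 33.2 and 40.9, CLDN1 had 16.4 and 16.5, and SNAI2 had 16.6 and 17.2.

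The genes next to the members on the chromosomes were taken from RefSeq, 3 protein-coding genes on each side, 24 in all. Of these 13 passed the floor, 7 higher and 6 lower, with a median of 0.05 and a range from −0.27 to 0.17. Among all genes 53.2% were higher by any amount and 46.8% lower. Around RUNX2, SUPT3H on one side went from 213 to 237, a difference of 0.15, and CDC5L beyond it was at −0.05. On the other side CLIC5 was below the floor with 18.4 and 16.0, ENPP4 was at −0.18 with all 3 probe sets lower, and ENPP5 at −0.00492. No measured neighbour of RUNX2 came near its difference of 1.24. RUNX2 was picked as the highest of 10437 genes, of which 2 (0.0192%) were at least 2-fold higher. Few genes anywhere could come near it, so nothing is read from its neighbours being lower.

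Around RUNX3, SRRM1, a splicing coactivator gene, went from 2016 to 2260, a difference of 0.17 with 6 of 7 probe sets higher. CLIC4, a chloride intracellular channel gene, went from 1453 to 1209, a difference of −0.27 with all 3 probe sets lower, and the splicing factor gene SYF2 on the other side was at 0.09. Around CBFB, PHAF1 was at 0.10 and CES4A was below the floor with 75.8 and 76.2. Around RUNX1, SETD4 was at −0.10 and CLIC6 was below the floor.

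**Figure D4:**
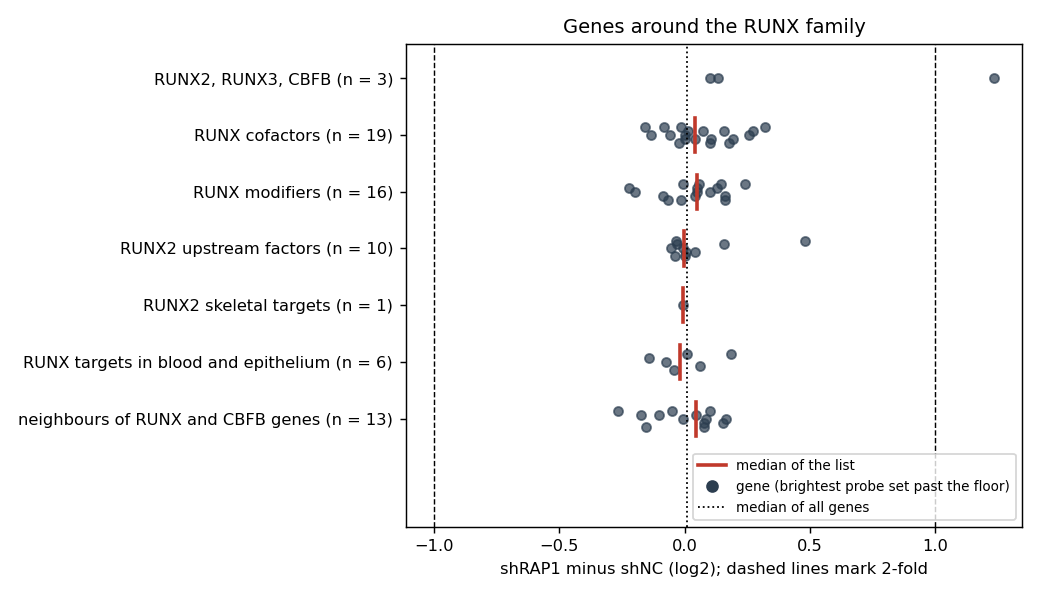
Difference on the log2 scale for each gene past the floor in the lists around the RUNX family, with list medians as red bars, the median of all genes as a dotted line and 2-fold as dashed lines. RUNX2 at 1.24 is the 1 gene past 2-fold, and MSX2 at 0.48, on a probe set ending in _x_at, is the highest gene of the other lists.

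Epithelial markers mostly passed the floor on both arrays and markers of other cell types mostly did not. Of 9 epithelial markers 6 passed the floor, while VIL1, CDX1 and LGALS4 were below it. The signal summed over all 9 was 31029 in shNC and 31800 in shRAP1. The 6 osteoblast markers were all below the floor, with sums of 169 and 164. Of 6 leukocyte markers on the array, 1 passed the floor, TYROBP at 98.5 and 99.9, and PTPRC was below it. Fibroblast and endothelial markers passed for 2 of 9 genes, KDR and VWF, with sums of 406 and 430 over the list. RUNX2 was higher in shRAP1 with the osteoblast markers below the floor on both arrays.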

How the data were processed

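Per the labels' protocols, total RNA was extracted with Trizol and labelled with biotin by in vitro transcription, which favours the 3′ end. The authors deposited 1 linear intensity per probe set and array, made with RMA per the submitters' processing notes. This method subtracts background, gives both arrays the same distribution and combines the probes of a set, so differences are relative to other genes. The RMA version is not given in the sources. Values up to 25726 on each array show the scale to be linear, and log2 was taken with no pseudocount. Of 49293 probe sets, 44988 carried 1 symbol in the platform annotation, 1832 several and 2473 none, and only those with 1 were used for a gene. Array medians were 77.0 and 78.9. A probe set passed the floor where its higher value reached the median of all values (6.29 on the log2 scale). Sequences are from the RefSeq table of GRCh38.p14, which held windows for 3 of the 4 genes and is not the array's stated build.

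The members, lists and motifs were chosen with earlier results of these data known. Named genes were the members, up to 4 genes with the largest differences in each pathway list and among the neighbours, the adjacent protein-coding genes on both sides and the 5 genes nearest RUNX2. Others named here, among them those below the floor, were chosen after their values were seen. Alternatives used the median probe set of a gene, other floors, fewer name endings, lowess centring (span 0.3), a pseudocount of 32 and low values raised to the floor. The number of arrays limits the precision. Python 3.11.15, numpy 2.4.6, pandas 2.3.3, statsmodels 0.14.6 and matplotlib 3.10.9 were used, and the scripts were tested on simulated data.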

Additional observations from a re-analysis of the deposited data

How the results depend on the processing

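No paired analysis was possible, because with 1 array per group there is a single pair and no spread between pairs. Of 7 other settings, only lowess centring (1.20) and 32 added before log2 (1.075) could change the RUNX2 difference of 1.24. The rest had to return the same value, because RUNX2 has 1 probe set past the floor and each of them keeps it. At the 75th percentile floor, 312 on the linear scale, it was kept only through its shRAP1 value of 337. Its shNC value of 143 lay below that floor, so that setting gives no check on the RUNX2 difference. With the median of all probe sets, below the floor too, an alternative chosen after seeing the data, the RUNX2 difference was 0.86 and no longer past 2-fold. RUNX3 and CBFB kept their sign under all of these. Genes past 2-fold upward, 2 in the main setting, numbered 1 with the floor at the 75th percentile, 1 with 32 added before log2, and 22 when 1.5-fold was counted. Downward there were 2, which became 3 with no floor, 1 with the higher floor, 1 with names in _x_at and _s_at left out, 1 with 32 added, 1 with low values raised to the floor, and 18 when 1.5-fold was counted. List medians moved by 0.05 or more in 4 cases: cofactors to −0.016 with the higher floor, and, without the _x_at and _s_at probe sets, modifiers to 0.10, neighbours to −0.00492 and the skeletal list, which is VEGFA alone, to 0.13. The cause was not tested. Low signal limits all values below the floor.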
